A study of Mus musculus with 8 samples.

Results

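The RNA of 10 adipocyte genes was examined in the brachiocephalic artery, a branch of the aortic arch in which atherosclerotic plaques form in mice. The 10 genes, taken by name from the 49585 genes of the deposited table, were Adipoq, Lep, Retn, Plin1, Fabp4, Cfd, Lipe, Pnpla2, Pparg and Cidec. All samples came from ApoE-deficient mice that ate a high-fat diet starting at 12 weeks of age. The 4 samples of the antibody group came from mice injected with an antibody against Dll1, a ligand of the Notch receptors (clone HMD1-5). The 4 control samples came from mice given the same dose of non-immune IgG, and both agents were given as 250 micrograms into the peritoneum, 2 times per week. Both groups carried the Apoe deficiency and the diet, and the labels give neither the sex of the mice nor whether arteries were pooled.

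Fat cells store triglyceride in a droplet, release it as fatty acids when energy is needed, and secrete hormones that act on other tissues. Most arteries are wrapped in perivascular fat, which around the thoracic vessels of the mouse resembles brown fat, the heat-producing kind, while other depots consist of white fat. PPAR gamma, encoded by Pparg, together with C/EBP proteins, switches on most genes of the mature adipocyte. Both white and brown adipocytes use most of the 10 genes, whereas leptin is made mainly by white adipocytes.

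The table gives TPM, the share of a gene among all transcripts after division by its length, over coding and non-coding genes together. The libraries carry the numbers 045 and 076 in their names, which the labels do not explain, and the libraries of a number are called a set. The IgG libraries were C1IA and C2IA in set 045 and G1IA and G2IA in set 076. The antibody libraries bear the names D1IA and D2IA in each set, but are different libraries. The share of TPM on nuclear protein-coding genes was 0.848% to 3.10% in set 045 and 21.2% to 24.2% in set 076. Levels below are therefore TPM rescaled so that nuclear protein-coding genes sum to 1000000, called the protein-coding scale, which is per length. The reads behind them, recovered from the steps of the TPM values, numbered 663099 to 2729071 on protein-coding genes in set 045 and 7422343 to 8070921 in set 076. Counting error was thus larger in set 045. Xist, the RNA of the inactive X chromosome, reached 4.46 TPM (C1IA) and 5.44 TPM (D2IA) in set 045, against at most 0.0342 TPM elsewhere. Ddx3y, a Y-linked gene, was at 0 in those 2 libraries only. Library D1IA of set 076 stood apart by skeletal muscle genes, whose summed level was 5926 against 5.67 to 473 in the other libraries. Apoe was listed at 0.287 to 8.03 TPM, with no Apoe-intact library to set beside it.

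The stretches just upstream of the transcription start are shown for 4 genes: the hormones Adipoq, Lep and Retn, whose levels are set against each other below, and the droplet gene Plin1, which served as their common reference. They are the 250 bases before the start from RefSeq, build GRCm38.p6, written 5′ to 3′ on the strand of the gene. Adipoq lay at chr16:23146286-23146535 (plus strand), Lep at chr6:29059971-29060220 (plus strand), Retn at chr8:3655520-3655769 (plus strand) and Plin1 at chr7:79732777-79733026 (minus strand). Capitals mark matches on either strand to the 5 motifs searched.
Adipoq: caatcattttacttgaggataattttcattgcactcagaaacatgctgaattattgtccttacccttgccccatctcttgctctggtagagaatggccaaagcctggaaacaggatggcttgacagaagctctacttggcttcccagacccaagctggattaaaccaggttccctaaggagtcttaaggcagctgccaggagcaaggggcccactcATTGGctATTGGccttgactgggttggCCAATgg
Lep: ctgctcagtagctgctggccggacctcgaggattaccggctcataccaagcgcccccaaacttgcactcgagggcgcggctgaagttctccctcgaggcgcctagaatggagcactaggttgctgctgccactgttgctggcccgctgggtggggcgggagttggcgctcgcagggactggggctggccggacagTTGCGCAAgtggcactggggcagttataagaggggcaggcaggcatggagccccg
Retn: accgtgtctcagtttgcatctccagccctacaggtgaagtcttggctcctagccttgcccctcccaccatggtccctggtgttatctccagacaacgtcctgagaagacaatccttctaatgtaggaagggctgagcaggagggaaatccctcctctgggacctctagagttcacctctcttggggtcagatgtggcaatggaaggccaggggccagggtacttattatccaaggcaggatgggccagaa
Plin1: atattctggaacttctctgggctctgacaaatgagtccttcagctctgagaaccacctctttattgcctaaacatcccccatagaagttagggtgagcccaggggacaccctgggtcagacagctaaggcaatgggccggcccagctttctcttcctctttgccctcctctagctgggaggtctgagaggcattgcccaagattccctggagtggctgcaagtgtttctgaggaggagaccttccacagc
The C/EBP palindrome TTGCGCAA was present upstream of Lep, 55 to 48 bases before its start, and upstream of none of the other 8 members with an entry. Of 32851 mouse promoter windows of this length, 0.164% held it. The CCAAT box, in either orientation, matched 3 times upstream of Adipoq and also upstream of Pparg, against 33.8% of all windows. The nuclear receptor half-site AGGTCA matched upstream of Pparg (14.0% of all windows), as did the TATA box TATAAA (12.4%). The classical PPAR element DR1, a direct repeat of that half-site with any base between the copies, matched upstream of no member (0.0335% of all windows). Of the 10 members, 9 had an entry, with 13 windows in all, and Fabp4 had none. A match says only that these letters were present.

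Adiponectin, encoded by Adipoq, is the most abundant hormone of fat cells and acts on insulin sensitivity and the vessel wall. In set 045 its level was 185 and 793 in IgG libraries C1IA and C2IA, and 411 and 92.1 in antibody libraries D1IA and D2IA. In set 076 its level was 918 and 1765 in the IgG libraries, and 1775 and 1208 in the antibody libraries. Every library of set 076 lay above every library of set 045, while the treatment groups overlapped in both sets. Over both sets Adipoq averaged 915 ± 651 (SD, n = 4) under IgG and 872 ± 763 (SD, n = 4) under the antibody. In these bulk samples, fewer adipocytes and less RNA per adipocyte cannot be told apart.

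Leptin, encoded by Lep, signals the size of the fat stores to the brain. Its level in set 045 was 1.44 and 21.9 in the IgG libraries, and 34.2 and 0 in the antibody libraries. The reads behind these levels were 2, 52, 22 and 0, and a count of 0 in D2IA allows a level of up to 2.19. In set 076 its level was 0.832 and 0.627 under IgG and 0.485 and 0.136 under the antibody, from 6, 5, 4 and 1 reads. Lep was thus high in C2IA and D1IA of set 045, a library of each treatment, and low in the other 6. The exact 95% Poisson interval of the level, which covers counting error only, was 16.4 to 28.8 in C2IA and 21.4 to 51.8 in D1IA. The highest upper bound among the 5 other libraries with reads was 5.19, in C1IA. For the 0 reads in D2IA of set 045, the upper bound was 3.69 reads.

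Resistin, encoded by Retn, is a small secreted protein that mouse adipocytes make. In set 045 its level was 41.2 and 43.9 under IgG, and 16.5 and 4.65 under the antibody, from 27, 49, 5 and 3 reads. In set 076 its level was 53.0 and 92.1 under IgG, and 132 and 88.4 under the antibody, from 180, 346, 514 and 307 reads. The treatment groups did not overlap in set 045, where the antibody libraries were lower, and overlapped in set 076.

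Adipsin, encoded by Cfd, is complement factor D, the protease that starts the alternative complement pathway and is made in bulk by fat cells. Its level was 1052 and 2102 under IgG and 1740 and 313 under the antibody in set 045. It was 2707 and 4355 under IgG and 5412 and 3763 under the antibody in set 076. As for Adipoq and Retn, the sets did not overlap and set 076 was the higher.

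Perilipin 1, encoded by Plin1, coats the droplet of the adipocyte and gates access of lipases to it. Its level was 131 and 605 under IgG and 571 and 56.8 under the antibody in set 045, and 204 and 391 under IgG and 381 and 330 under the antibody in set 076. Plin1 had its highest and its lowest levels in set 045, and the libraries of set 076 lay between them. Cidec, whose product fuses droplets into a large one, was at 125 and 414 under IgG and 758 and 115 under the antibody in set 045. In set 076 Cidec was at 463 and 1178 under IgG and 1112 and 852 under the antibody. Both genes were high in C2IA and D1IA of set 045 and low in C1IA and D2IA.

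The lipases followed the same order in set 045. Pnpla2 encodes ATGL, which takes the first fatty acid off triglyceride, and its level was 254 and 1151 under IgG and 1226 and 253 under the antibody. In set 076 Pnpla2 was at 754 and 1479 under IgG and 1232 and 931 under the antibody. Lipe encodes hormone-sensitive lipase, which acts on the next step. Its level was 90.0 and 416 under IgG and 422 and 61.9 under the antibody in set 045, and 179 and 327 under IgG and 253 and 240 under the antibody in set 076. For both lipases the treatment groups overlapped in both sets.

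Fabp4, the fatty acid carrier of adipocytes, which capillary endothelium and macrophages also make, was the highest of the 10 on the per-length scale in every library. Its level was 1610 and 8591 under IgG and 8634 and 1815 under the antibody in set 045, and 7134 and 17564 under IgG and 16185 and 10867 under the antibody in set 076. Pparg was at 44.1 and 192 under IgG and 233 and 67.1 under the antibody in set 045. In set 076 Pparg was at 140 and 266 under IgG and 248 and 184 under the antibody. Antisense genes overlap Lipe and Pparg, at levels of at most 19.6 and 5.35, and the kit kept the strand.

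**Figure D1:**
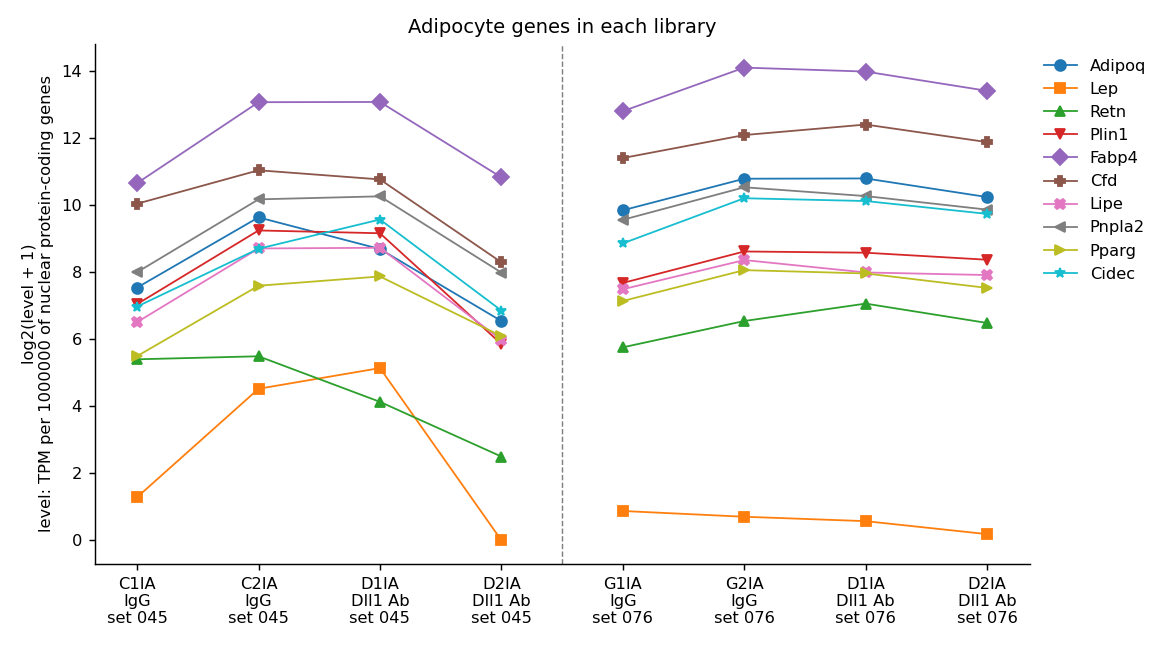
Level of each of the 10 genes in each library, as log2(level + 1) on the protein-coding scale; IgG and Dll1 antibody (Dll1 Ab) libraries are grouped by set, and lines join the libraries of a set for reading only. In set 045 all genes but Retn peak in C2IA and D1IA, 1 library of each treatment, while Retn is highest in the IgG libraries C1IA and C2IA. Lep lies at 0.832 or less in all of set 076.

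The libraries ranked alike for most of the 10 genes, and in set 045 the upper pair held a library of each treatment. In set 045, C2IA was among the upper pair of libraries for 10 of 10 members and D1IA for 9 of 10. D2IA was the lowest for 8 members and C1IA for Fabp4 and Pparg, and these were the libraries high in Xist. In set 076, IgG library G1IA was the lowest for 9 members and the highest for Lep, and G2IA was the highest for 6. The summed level of the 10 genes was 0.353% and 1.43% of protein-coding TPM under IgG and 1.40% and 0.278% under the antibody in set 045. In set 076 it was 1.26% and 2.74% under IgG and 2.67% and 1.85% under the antibody.

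Levels within a set were compared as folds. For every member but Retn in set 045, the treatment means differed by less than the wider pair of libraries of like treatment. In set 045 each pair of like treatment held a library high in Xist and a library low in it. Leaving Lep aside, the IgG libraries of set 045 differed 1.07-fold (Retn) to 5.33-fold (Fabp4), and its antibody libraries differed 3.47-fold (Pparg) to 10.04-fold (Plin1). In set 076 the IgG libraries differed 1.61-fold to 2.54-fold and the antibody libraries 1.06-fold to 1.498-fold. The ratio of the antibody mean to the IgG mean was 0.249 (Retn) to 1.62 (Cidec) in set 045 and 0.969 (Pnpla2) to 1.52 (Retn) in set 076.

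Whether the Dll1 antibody changed these genes was tested with limma on log2(level + 1), and p-values were adjusted over all 18170 genes by the Benjamini-Hochberg method. With both sets together and the set as a term, 0 of 10 members passed an adjusted p of 0.05, as did 0 of all genes (0.0%). At an unadjusted p under 0.05 it was 0 of 10 members, against 278 genes (1.53%). The difference, antibody minus IgG, was lowest for Retn at -0.75 (SE 0.60) and highest for Cidec at 0.39 (SE 0.63), with an adjusted p of 1.00 for each member. The median over the members was -0.13 and over all genes -0.07, with 4 members above 0 and 6 below. The groups of 4 overlapped for all 10 members, while they did not for 0.732% of all genes.

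Within set 045 again 0 of 10 members and 0 of all genes (0.0%) passed, and at an unadjusted p under 0.05 it was 1 of 10 members against 7.99% of genes. That member was Retn, at -2.13 (SE 0.55, unadjusted p = 0.0058, adjusted p = 0.534), whose antibody libraries rest on 5 and 3 reads. The adjusted p lay between 0.171 and 0.827 over the alternatives run. Without D2IA the Retn difference was -1.31, and without D1IA it was -2.95. Its antibody libraries both lay below the IgG libraries, as for 20.8% of all genes in this comparison of 2 with 2, and groups did not overlap in either direction for 35.0%. Cfd was at -1.01 (SE 0.78), Adipoq at -0.97 (SE 0.87) and Plin1 at -0.64 (SE 1.10). The 6 other members lay between -0.33 and 0.44, and the members' median was -0.29 against -0.13 over all genes.

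Xist and Ddx3y were alike in IgG library C1IA and antibody library D2IA of set 045, and likewise in C2IA and D1IA, so the members were also read within these pairs. The pairs come from the data, not from the labels, and were chosen after seeing the data. Adipoq in the antibody library was 0.498 times its IgG level in the pair high in Xist and 0.519 times in the other pair. Retn was 0.113 and 0.376 times its IgG level, Cfd 0.297 and 0.828 times, and Plin1 0.433 and 0.944 times. These 4 members were lower under the antibody in both pairs, as were 32.9% of all genes tested. Pparg, at 1.52 and 1.21 times, and Fabp4, at 1.13 and 1.01 times, were higher in both, as were 21.7% of all genes. The other 4 members, Lep, Lipe, Pnpla2 and Cidec, moved in opposite directions. With high Xist as a further term of the limma fit, the differences in set 045 stayed the same by construction and their errors changed. Retn (SE 0.46, adjusted p = 0.346), Adipoq (SE 0.38, adjusted p = 0.407) and Cfd (SE 0.44, adjusted p = 0.427) had the smallest p-values of the members. None of the 10 members and 0 of all genes passed in that fit, and at an unadjusted p under 0.05 it was 2 of 10 members (Adipoq and Retn) against 11.8% of genes.

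Within set 076, 0 of 10 members passed, while 2 genes of the table did, both lower under the antibody (0.011%). At an unadjusted p under 0.05 it was 0 of 10 members and 0.897% of genes. Retn had the highest difference, 0.62 (SE 0.55), and Lep the lowest, -0.41 (SE 1.69), on 1 to 6 reads per library. The other 8 members lay between 0.02 and 0.40, and the members' median was 0.22 against 0.00 over all genes. Lep was the member whose groups did not overlap, with the antibody lower as for 11.0% of all genes, and 19.0% did not overlap in either direction.

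**Figure D2:**
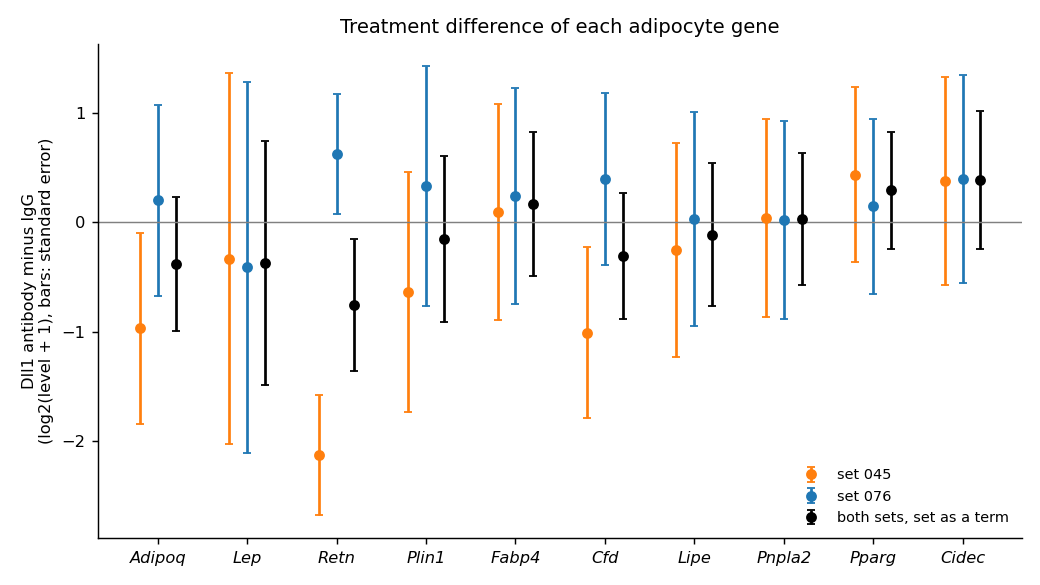
Difference between Dll1 antibody and IgG libraries in log2(level + 1) for each gene, within each set (2 libraries against 2) and over both sets (4 against 4); bars are standard errors. Most bars cross 0, and the Retn point of set 045 at -2.13 and that of set 076 at 0.62 lie on opposite sides.

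The treatment difference of Retn was 2.75 higher in set 076 than in set 045 (SE 0.78, unadjusted p = 0.0090, adjusted p = 0.798, limma interaction term). Under the alternatives run this difference was 1.51 to 3.57. No member passed this test, nor did any gene (0.0%), while 5.09% of genes had an unadjusted p under 0.05. The interaction of the other members ranged from -0.29 (Pparg) to 1.40 (Cfd). The brown fat, muscle and macrophage genes also moved between the libraries compared, as given below, and their part in these differences was not tested.

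The level of the members also differed between the sets, each of which holds 2 libraries of each treatment. On the protein-coding scale, set 076 minus set 045 was 2.32 for Adipoq (SE 0.61, adjusted p = 0.0509), 2.08 for Retn (SE 0.60, adjusted p = 0.0667) and 1.91 for Cfd (SE 0.57, adjusted p = 0.0724). It was 1.71 for Cidec, 1.67 for Fabp4, 0.95 for Pnpla2, 0.91 for Pparg, 0.48 for Plin1 and 0.46 for Lipe, and -2.15 for Lep (SE 1.12, adjusted p = 0.240). None of the 10 passed, against 9.52% of all genes, of which 2.67% were higher in set 076 and 6.84% lower. The median over the members was 1.31, against -0.27 over all genes. The groups did not overlap, with set 076 higher, for Adipoq, Retn and Cfd, as for 6.41% of all genes, and 21.0% did not overlap in either direction. At an unadjusted p under 0.05 it was 5 of 10 members (Adipoq, Retn, Cfd, Cidec and Fabp4), against 29.4% of genes.

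The call for Adipoq turned on single libraries and on the tool. With limma-voom on the recovered reads Adipoq passed, as did 13.6% of all genes. Without C2IA of set 045 Adipoq differed by 2.85 (adjusted p = 0.0432), where 3.44% of all genes passed. Without D1IA of set 045, the shallowest library, Adipoq (2.63, adjusted p = 0.0408), Cfd (2.26, adjusted p = 0.0424) and Cidec (2.25, adjusted p = 0.0387) passed, as did 16.5% of all genes. Without C1IA and D2IA, the libraries high in Xist, Lep was the member that passed, at -4.25 (adjusted p = 0.0228), as did 2.3% of all genes. Plin1, Lipe, Pnpla2 and Pparg were then at -0.89, -0.78, -0.16 and -0.06. With high Xist as a term instead, the set difference again rested in set 045 on C2IA and D1IA, so this was no separate check. The Lep difference was the same by construction (adjusted p = 0.0160), beside 3.4% of all genes that passed, and Adipoq was at 1.25 (adjusted p = 0.124). Lep was at 21.9 in C2IA and 34.2 in D1IA, against 1.44 in C1IA and 0 in D2IA. On TPM as deposited, whose scale puts the median of all genes 2.17 higher in set 076, 9 members passed, all higher, as did 95.0% of all genes, and Lep was below the filter. On that TPM scale the 9 members differed by 3.69 (Lipe) to 5.68 (Adipoq). Set and whatever its number stands for, depth included, cannot be told apart.

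Levels were also divided by the Plin1 level of the same library. The Adipoq level was 0.721 to 1.62 times that of Plin1 in set 045 and 3.66 to 4.66 times in set 076. For Cfd the ratio was 3.05 to 8.02 in set 045 and 11.1 to 14.2 in set 076. For Cidec it was 0.685 to 2.02 in set 045 and 2.27 to 3.01 in set 076, and for Fabp4 12.3 to 31.9 and 33.0 to 44.9. The sets did not overlap for these 4 genes, and set 076 was the higher. The share of all genes whose ratio to Plin1 does not overlap was not computed. On levels, 21.0% of all genes did not overlap between the sets in either direction. The exon lengths used were 896 (Fabp4) to 1856 bases (Cidec) for these 4 genes and 4649 for Plin1. For Retn, whose levels did not overlap between the sets, the ratios did, at 0.0289 to 0.314 in set 045 and 0.235 to 0.347 in set 076. The ratios also overlapped for Pnpla2 (1.90 to 4.45 and 2.82 to 3.78) and Pparg (0.318 to 1.18 and 0.557 to 0.687). The lipase Lipe kept close to Plin1, at 0.687 to 1.09 in set 045 and 0.664 to 0.878 in set 076. For Lep the ratio reached 0.0599 in set 045, where D2IA was at 0, and lay at 0.000411 to 0.00409 in set 076, within the range of set 045. These ratios were chosen after the levels were seen and are given as a description.

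**Figure D3:**
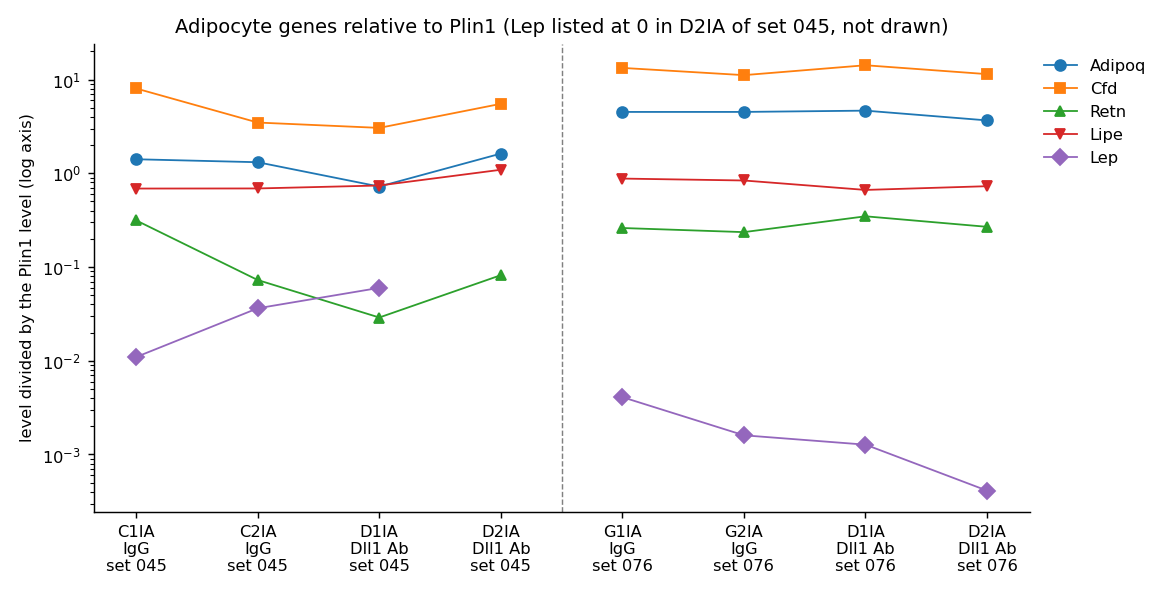
Level of 5 genes divided by the Plin1 level of the same library (log axis), by library and set, with lines joining the libraries of a set for reading only. Adipoq lies at 0.721 to 1.62 in set 045 and 3.66 to 4.66 in set 076, while Lipe covers similar ratios in both.

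Gene length moved with the difference between the sets. The 5 members with under 2000 bases of exon, Fabp4 (896 bases), Cfd (923), Adipoq (1381), Retn (1579) and Cidec (1856), differed by 1.67 to 2.32. The 5 longer ones, Pparg (2953 bases), Pnpla2 (3020), Lep (3354), Plin1 (4649) and Lipe (5886), differed by -2.15 to 0.95. The length of Fabp4 was inferred from the steps of its TPM, while GENCODE M21 annotates 4489 bases, and by that length Fabp4 (1.67) would be among the longer members, whose range would then be -2.15 to 1.67. Over all protein-coding genes the median difference was 0.29 below 1000 bases and -0.40 at 5000 bases or more. The part of length in the members' differences was not tested.

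**Figure D4:**
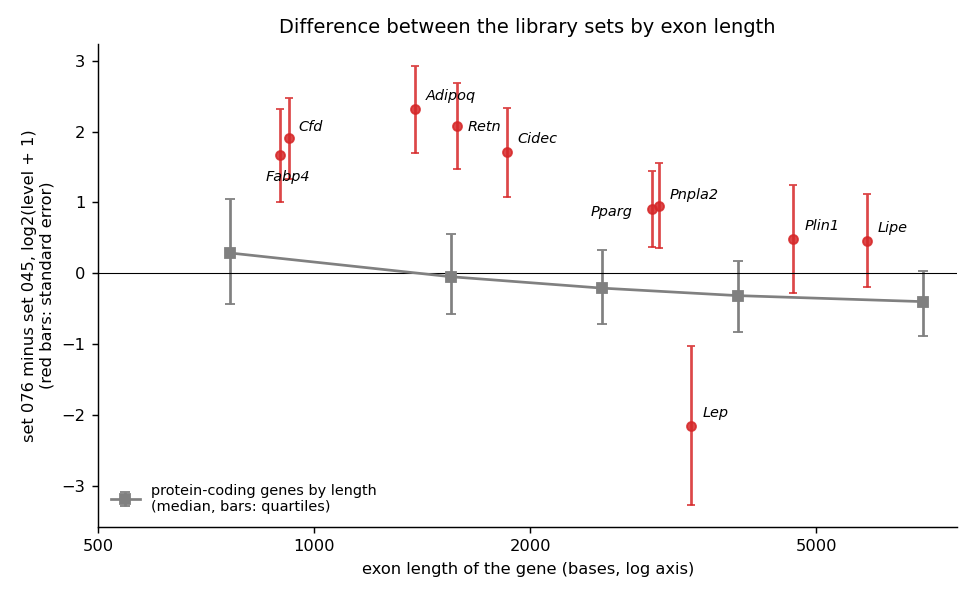
Difference in log2(level + 1) between set 076 and set 045 against exon length (log axis), for the 10 genes (red, bars: standard error) and for all tested protein-coding genes in 5 length groups (grey, median with quartiles). The 5 genes shorter than 2000 bases lie at 1.67 to 2.32, above the longer ones, with Fabp4 drawn at its inferred length of 896 bases.

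Brown adipocyte genes were present in every library beside these genes. Ucp1, the uncoupling protein by which brown fat makes heat, was at 100 and 695 under IgG and 1147 and 172 under the antibody in set 045. In set 076 Ucp1 was at 942 and 4075 under IgG and 5106 and 2859 under the antibody. C2IA and D1IA were again the upper pair of set 045, and G1IA was the lowest of set 076. Of the 10 brown adipocyte genes, 10 lay above 0 in the difference between the sets (median 2.24, against -0.27 over all genes). Cidea, Dio2 and Elovl3 rose past the threshold in set 076, as did 2.67% of all genes. Elovl3, an enzyme of long fatty acids in brown fat, was at 0 to 14.0 in set 045 and 4.98 to 151 in set 076 (difference 3.84, adjusted p = 0.0289). Dio2, which activates thyroid hormone, was at 14.6 to 30.3 in set 045 and 34.2 to 197 in set 076 (difference 2.29, adjusted p = 0.0202). For treatment over both sets, 0 of the 10 brown genes passed, as did 0 of all genes (0.0%). By limma, Elovl3 had the smallest unadjusted p among them (difference 2.39, unadjusted p = 0.0167, adjusted p = 1.00). Dio2 came next (difference 0.96, unadjusted p = 0.0476). Of all genes, 1.53% had an unadjusted p under 0.05. Since white and brown adipocytes share most members, they are called adipocyte genes here, and the data do not assign them to white fat alone.

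The rest of the fat cell programme was read for treatment over both sets in the 6 lists that follow. In each list 0 genes passed the threshold, as did 0 of all genes (0.0%). Of 14 genes of triglyceride synthesis and fatty acid uptake, 7 lay above 0 and 7 below (median -0.02). Of 16 genes of lipolysis and the lipid droplet, 9 lay above 0 (median 0.02), with Plin2, a droplet coat protein of many cell types, at 0.35 (SE 0.22). All 10 genes of fatty acid synthesis lay below 0 (median -0.45, against -0.07 over all genes), with Elovl6, an elongase, at -0.51 (SE 0.32) and Acaca, which makes malonyl-CoA, at -0.55 (SE 0.39). Of 10 adipocyte transcription factors 7 lay above 0 (median 0.11), with Cebpd at 0.27 and Prdm16 at 0.34. Of 6 adipokine receptors 3 lay above 0 (median 0.01), with the chemerin receptor Cmklr1 at 0.54 and Cdh13, which binds adiponectin, at 0.27. Of 8 other adipokines 3 lay above 0 (median -0.08), with Apln at 0.94 (SE 0.40, unadjusted p = 0.0460, adjusted p = 1.00).

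Between the sets, several of these genes passed on the protein-coding scale, where 2.67% of all genes were called higher in set 076 and 6.84% lower. Cd36, which takes up fatty acids, was at 224 to 802 in set 045 and 1630 to 2431 in set 076 (difference 2.27, adjusted p = 0.0272). Lpl, which frees fatty acids from lipoproteins at the capillary wall, was at 293 to 809 in set 045 and 1141 to 1440 in set 076 (difference 1.37, adjusted p = 0.0359). The adipokines Rbp4 (1.67) and Nampt (1.13) were higher in set 076. Acly, which feeds acetyl-CoA to fatty acid synthesis, was lower in set 076 (-1.44, adjusted p = 0.0414), as was Zfp423 (-1.10, adjusted p = 0.0271), a factor of white preadipocytes. No gene of the lipolysis list and no adipokine receptor passed, with Abhd5, the coactivator of ATGL, at 0.82 (adjusted p = 0.0677) and Adipor2 at 1.17 (adjusted p = 0.0680). Directions between the sets depend on the scale: 1243 genes were called lower in set 076 on the protein-coding scale, 626 after median-of-ratios scaling, where the median of all genes was 0.03, and 10 on TPM as deposited.

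Markers of other cells were read beside the adipocyte genes. The summed level of 10 macrophage genes was 6951 to 20569 in set 045 and 12011 to 25956 in set 076 and was highest in G1IA, where the adipocyte genes of set 076 were lowest. All 10 macrophage genes lay above 0 for treatment in set 045 (median 0.67) and below 0 in set 076 (median -0.39). Of them 0 passed the threshold, against 0.0% of all genes in set 045 and 0.011% in set 076. The summed level of 8 capillary endothelial genes was 404 to 1383 in set 045 and 836 to 1113 in set 076, with 0 past the threshold for treatment. Among them Tie1 was lower in set 076 (-1.23, adjusted p = 0.0414), and Car4 was at 0 in C1IA. Beside the lists that follow, 2.67% of all genes were called higher in set 076. Of 8 smooth muscle genes 7 rose in set 076, among them Cnn1 (3.74, adjusted p = 0.0015). The summed level of the 8 genes was 584 to 988 in set 045 and 3679 to 4755 in set 076. Of 7 heart muscle genes 4 rose in set 076, among them Myl7 (6.01, adjusted p = 0.0140), which was at 0 in 3 of the 4 libraries of set 045. Of 8 tested progenitor and adventitial fibroblast genes, Ly6a (1.49, adjusted p = 0.0230) and Pdgfra (0.79, adjusted p = 0.0322) rose in set 076. Skeletal muscle (10 genes), mesothelium (5) and parathyroid and thyroid genes (1 tested of 5) had 0 past the threshold in any comparison, and Pth was at 932 in D1IA of set 076. Of the 24 genes called between the sets in all lists, Acta2, Cnn1, Myh11 and Tagln kept the call with each library left out. The other 20, every called fat gene among them, lost it without D1IA of set 076 and in part without further libraries (adjusted p up to 0.169), in each case with the same direction. Acly, Tie1 and Zfp423 had the opposite direction on TPM as deposited. The part of these cells in the members' differences was not tested.

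**Figure D5:**
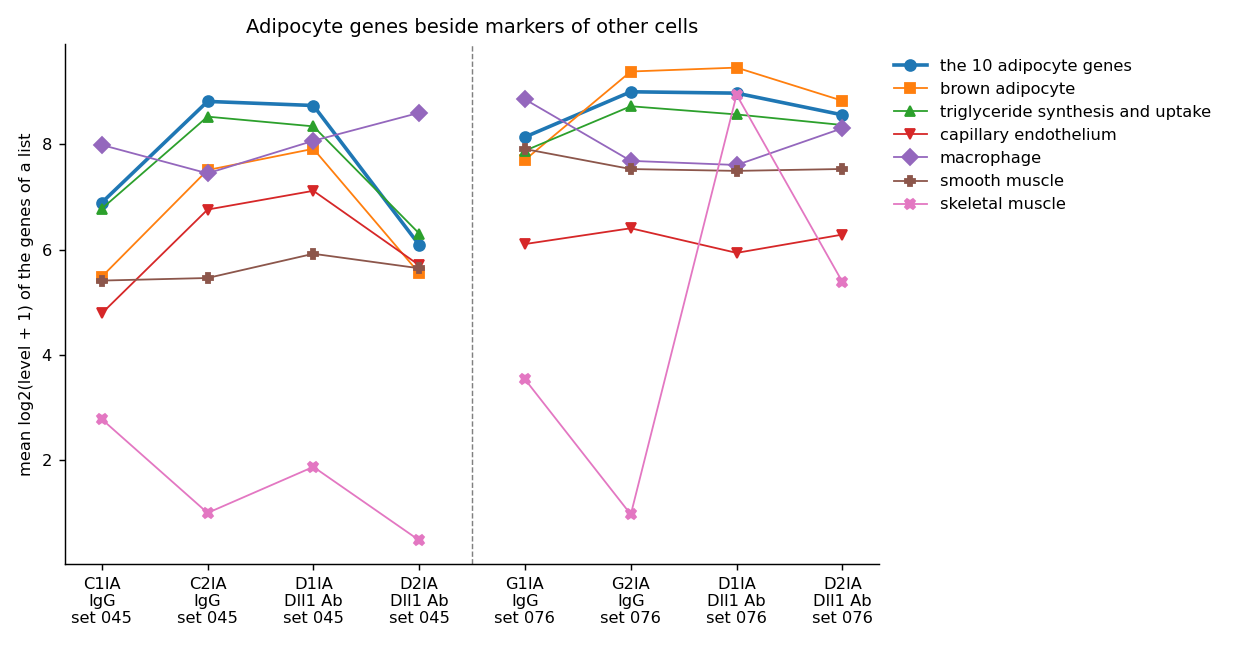
Mean log2(level + 1) over the genes of each list in each library, on the protein-coding scale, with the 10 adipocyte genes in bold blue; lines join the libraries of a set for reading only. Brown adipocyte and triglyceride genes follow the adipocyte genes, macrophage genes are highest in G1IA within set 076, and skeletal muscle genes peak in D1IA of set 076.

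Across the 8 libraries, Pearson's r of a gene with the mean of the 10 members was taken as a description, since the points share set, depth and scale. Among 12579 protein-coding genes with a mean level of at least 5, the most alike were L3hypdh, Otop1, Ucp3, Tuba8, Ldhd, Fbp2, Fam195a, Cs, Ndufa10 and Pck1, with r of 0.98 to 0.99. Otop1 marks brown adipocytes, Ucp3 encodes an uncoupling protein, Cs encodes citrate synthase, Ndufa10 a subunit of respiratory complex I, and Pck1 an enzyme that supplies glycerol for triglyceride. The median r was 0.95 for the triglyceride list, 0.92 for the brown adipocyte list, 0.72 for lipolysis, 0.52 for capillary endothelium, 0.43 for smooth muscle and -0.34 for macrophages. Within the 10 members r was lowest for Lep (0.19) and Retn (0.64), each member being compared with the mean of the other members.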

How the data were processed

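Per the labels' protocols, TRIZOL-extracted total RNA (100 ng) was cleared of ribosomal RNA before a strand-keeping library preparation. The authors deposited TPM per gene and library, per the file headers, with 1 column per library. Aligner, counter and annotation: not given in the sources used here. The build named in the submitters' processing notes is hg19, a human build, while the table lists mouse Ensembl identifiers, so coordinates here are those of RefSeq alone. Column names give treatment and set but not the numbered sample of the labels, so each column was a replicate of its group. Nothing in the labels ties a sample to its own animal. The p-values therefore reflect variation among these samples, part of which may be technical.

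TPM was rescaled to nuclear protein-coding genes (gene types from GENCODE M21). Multiplied by exon length, all 25386 genes above 0 gave whole reads within 1e-06 (100%), 19704 by their M21 length. The other 5682, Fabp4 and Cfd among them, took a length inferred from the step size. These reads, 11062677 to 13816416 per library in all, served for depth, Poisson intervals, the floor of 3 reads and a limma-voom alternative. limma 3.58.1 in R 4.3.3 was fitted to log2(level + 1), which understates the change of low genes, for 18170 genes with a mean level of at least 1. Treatment was tested with set as a term, and within sets from a model of the 4 combinations of set and treatment. Tests were two-sided, with Benjamini-Hochberg adjustment over all genes tested. The fit was also run on simulated data with the same spread in both sets, which cannot show how it performs at the spread of these libraries. All libraries share a spread per gene in these fits, although set 045 was shallower. Motifs were searched in Python 3.11.15.

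The members and lists were chosen with earlier results of these data known. All 10 members are named, with up to 2 genes of smallest p for treatment and for set in each other list, and the 10 genes most like the members. Alternatives covered scale, pseudocount, filter, tool, model, the libraries high in Xist and each library left out. A fit with high Xist (above 1 TPM) as a term was chosen after seeing the data. Some results of the lists are not reported here.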

Additional observations from a re-analysis of the deposited data

Results flagged for a closer look

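Lep was flagged in both treatment groups because a library stood far above the other 3 of its group. In the IgG group, C2IA of set 045 was at 21.9, with a gap to the next library of 0.962 of the group's range, above Dixon's 95% critical value for 4 samples. In the Dll1 antibody group, D1IA of set 045 was at 34.2, with a gap of 0.986 of the range. For the 10 genes, 20 groups were examined and 2 were flagged, where chance flags about 1 in 20.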

How the results depend on the processing

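No paired analysis was possible because the column names carry none of the replicate numbers of the labels. Of 312 values recomputed under the alternatives that keep every library or drop both libraries high in Xist, 278 kept their direction and side of the threshold. No member passed for treatment under any alternative. The genes called for treatment over both sets were 1 on TPM as deposited. In set 045 they were 1 after median-of-ratios scaling, 1 with a pseudocount of 0.1, and 0 to 65 leaving out each library (65 without D2IA of set 045). In set 076 they were 78 on TPM, 0 with a pseudocount of 0.1, 9 with the set fitted alone, and 0 to 4 leaving out each library (0 without any of its own libraries, 4 without C1IA or C2IA of set 045). For the interaction they were 134 on TPM and 0 to 5 leaving out each library (5 without D2IA of set 045). Between the sets 10898 genes were called on TPM, 913 with no filter, 407 without the libraries high in Xist, 618 with high Xist as a term, and 145 to 3008 leaving out each library (145 without D1IA of set 076, 3008 without D1IA of set 045). Members called between the sets numbered 9 on TPM (95.0% of all genes) and 1 (Adipoq) with limma-voom (13.6%). They numbered 1 (Lep) without the libraries high in Xist (2.3%) or with high Xist as a term (3.4%). Leaving out each library, 0 to 3 were called, against 0.796% to 16.5% of all genes.

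Treatment differences that changed sign over both sets were Retn with limma-voom (0.23), Plin1 (0.19), Cfd (0.17) and Lipe (0.0247) without the libraries high in Xist, and Fabp4 (-0.25), Pnpla2 (-0.37), Pparg (-0.12) and Cidec (-0.0034) on TPM. In set 045 they were Lep (0.62) and Lipe (0.0209) without the libraries high in Xist, and Fabp4 (-0.82), Pnpla2 (-0.83), Pparg (-0.45) and Cidec (-0.47) on TPM. Set differences that changed sign without the libraries high in Xist were Plin1 (-0.89), Lipe (-0.78), Pnpla2 (-0.16) and Pparg (-0.0606). These 4 had the same values by construction with high Xist as a term, an alternative chosen after seeing the data. The cause was not tested.

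With a library left out of a set, the lone library of its treatment is assumed to vary like the others. Leaving out each library, treatment differences ranged over both sets from -0.70 to 0.16 for Adipoq, -1.41 to 0.65 for Lep, -0.72 to 0.60 for Plin1, -0.30 to 0.67 for Fabp4, -0.66 to 0.33 for Cfd, -0.64 to 0.46 for Lipe, -0.43 to 0.48 for Pnpla2, -0.16 to 0.68 for Pparg, -0.15 to 0.93 for Cidec. They ranged in set 045 from -2.04 to 0.10 for Adipoq, -2.90 to 2.23 for Lep, -2.29 to 1.01 for Plin1, -1.12 to 1.30 for Fabp4, -2.25 to 0.23 for Cfd, -1.63 to 1.12 for Lipe, -1.10 to 1.18 for Pnpla2, -0.61 to 1.49 for Pparg, -0.98 to 1.73 for Cidec. They ranged in set 076 from -0.27 to 0.67 for Adipoq, -0.14 to 0.80 for Plin1, -0.41 to 0.89 for Fabp4, -0.41 to 0.46 for Lipe, -0.47 to 0.51 for Pnpla2, -0.31 to 0.61 for Pparg, -0.27 to 1.07 for Cidec. The difference between the sets ranged from -0.27 to 1.05 for Plin1, -0.12 to 0.98 for Lipe.

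Lep could not be tested on TPM or with set 076 fitted alone, being below the filter. Low counts limit Lep outside C2IA and D1IA of set 045 (0 to 6 reads) and Retn in the antibody libraries of set 045 (5 and 3 reads).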
